A study of Homo sapiens with 15 samples.

Results

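The genes described here encode 6 receptors of the tumor necrosis factor (TNF) receptor family: FAS, TNFRSF10A, TNFRSF10B, TNFRSF10C, TNFRSF10D and TNFRSF1A. They were taken by symbol, and all 6 were listed in each of the 3 deposited tables, among 20443 genes in at least 1 table. Their RNA was measured in A375, an established human melanoma line, in 15 libraries of polyadenylated RNA that form 5 groups of 3. A starvation set compares A375 held for 48 hours in 0.1% FBS (fetal bovine serum) with A375 in 10% FBS. An overexpression set compares A375 overexpressing caMKL1, the constitutively active form of MKL1, or MKL1 itself with A375 carrying a control vector, also at 48 hours. The MKL1 protein, whose gene is now called MRTFA, works with serum response factor (SRF) and is held in the cytoplasm by monomeric actin. The sources used here do not give the promoter or delivery of the constructs or the serum of the overexpression set. The stated subject of the series is T lymphocyte killing of A375, and none of the libraries is described as holding lymphocytes.

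Death receptors carry a cytoplasmic death domain, through which ligand binding recruits the adaptor FADD or TRADD and then caspase-8. FAS binds FAS ligand, a main weapon of cytotoxic lymphocytes besides perforin and granzymes. TNFRSF10A (DR4) and TNFRSF10B (DR5) bind TRAIL and signal death, whereas TNFRSF10C (DcR1) lacks a cytoplasmic death domain, TNFRSF10D (DcR2) has only a truncated one, and both act as decoys for TRAIL. TNFRSF1A (TNFR1) binds TNF and by default drives NF-kappaB signalling and survival, turning to death when that arm is blocked. FAS, TNFRSF10A and TNFRSF10B are known targets of p53.

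The libraries held between 13937251 and 23957043 counts. MRTFA was at 479 ± 11.4 CPM (counts scaled to library size over all 15 libraries; SD, n = 3 here and in every mean below) with caMKL1, 752 ± 28.8 CPM with MKL1 and 26.1 ± 0.21 CPM in vector cells, and at 15.5 ± 0.362 CPM in 0.1% FBS and 19.9 ± 2.27 CPM in 10% FBS. SRF averaged 272 ± 5.8 CPM with caMKL1, 72.7 ± 2.37 CPM with MKL1 and 65.8 ± 3.79 CPM in vector cells, and 43.6 ± 3.34 CPM in 0.1% FBS and 41.3 ± 2.66 CPM in 10% FBS. Of the 7 melanoma lineage markers, SOX10 was at 399 to 1000 CPM, MITF at 28.4 to 54.2 CPM and S100B at 12.9 to 74.6 CPM. DCT was at 0 to 4.59 CPM, and PMEL, MLANA and TYR stayed at or under 1.25 CPM in every library. In starvation MITF (log2 fold change 0.77) and MLANA (1.55) rose and SOX10 (-0.38) and S100B (-1.24) fell. With caMKL1 S100B (0.43) rose and SOX10 (-0.24) and DCT (-2.66) fell, and with MKL1 MITF (0.44), DCT (0.52) and S100B (0.88) rose. Of 8 lymphocyte markers, CD2 and CD3G had 0 counts in all 15 libraries, while CD8A (0.0978 to 0.649 CPM) and CD247 (0.0499 to 0.961 CPM) had counts in each. PTPRC, at no more than 1.15 CPM, rose in starvation beside FAS (log2 fold change 1.28; edgeR's quasi-likelihood test, Benjamini-Hochberg adjusted p = 0.00861). The 8 lymphocyte markers together were at 2.25 to 2.30 CPM in 0.1% FBS and 1.01 to 2.16 CPM in 10% FBS, and at 0.35 to 0.88 CPM with caMKL1, 0.759 to 0.995 CPM with MKL1 and 0.585 to 0.973 CPM with the control vector. The 4 measured fibroblast markers together were at 13.6 to 15.7 CPM in 0.1% FBS and 16.8 to 18.9 CPM in 10% FBS, and at 15.8 to 16.7 CPM with caMKL1, 11.0 to 12.8 CPM with MKL1 and 6.35 to 7.22 CPM with the control vector. They did not move jointly. In starvation LUM (0.29) rose, COL1A1 (-1.27) and DCN (-2.42) fell, and COL1A2 did not pass. With caMKL1 LUM (1.91) rose, and COL1A1 and DCN did not pass. With MKL1 LUM (1.06) and COL1A1 (0.79) rose, and DCN did not pass. These markers moved with the groups, and their part in the results was not tested. The labels do not say whether replicates were separate cultures, so p-values measure the spread between these libraries, which may be technical. In bulk RNA, fewer cells with a transcript and less of it per cell cannot be told apart.

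Per transcript length, TNFRSF1A and TNFRSF10B were the highest of the 6 receptor genes, and the TRAIL decoys were close to absent. Other death receptors were not part of this ranking. On the deposited FPKM scale (fragments scaled to transcript length and library size), TNFRSF1A was at 56.7 ± 2.27 in 0.1% FBS against 90 ± 6.91 in 10% FBS, and at 70.9 ± 1.32 with caMKL1, 89.0 ± 2.01 with MKL1 and 91.9 ± 3.52 with the control vector. TNFRSF10B was at 60.9 ± 0.891 FPKM in 0.1% FBS against 34.7 ± 1.06 FPKM in 10% FBS, and at 43.7 ± 0.858 FPKM with caMKL1, 50.3 ± 0.796 FPKM with MKL1 and 48.0 ± 0.838 FPKM with the control vector. In 0.1% FBS alone its FPKM (60.2, 60.5 and 61.9) lay above that of TNFRSF1A (59.3, 55.5 and 55.2) in every library. TNFRSF10A ranged from 5.60 FPKM with caMKL1 to 17.8 FPKM in 0.1% FBS, and FAS from 5.15 FPKM in 10% FBS to 18.1 FPKM in 0.1% FBS. TNFRSF10C did not exceed 0.652 FPKM, and TNFRSF10D did not exceed 0.027 FPKM.

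**Figure D1:**
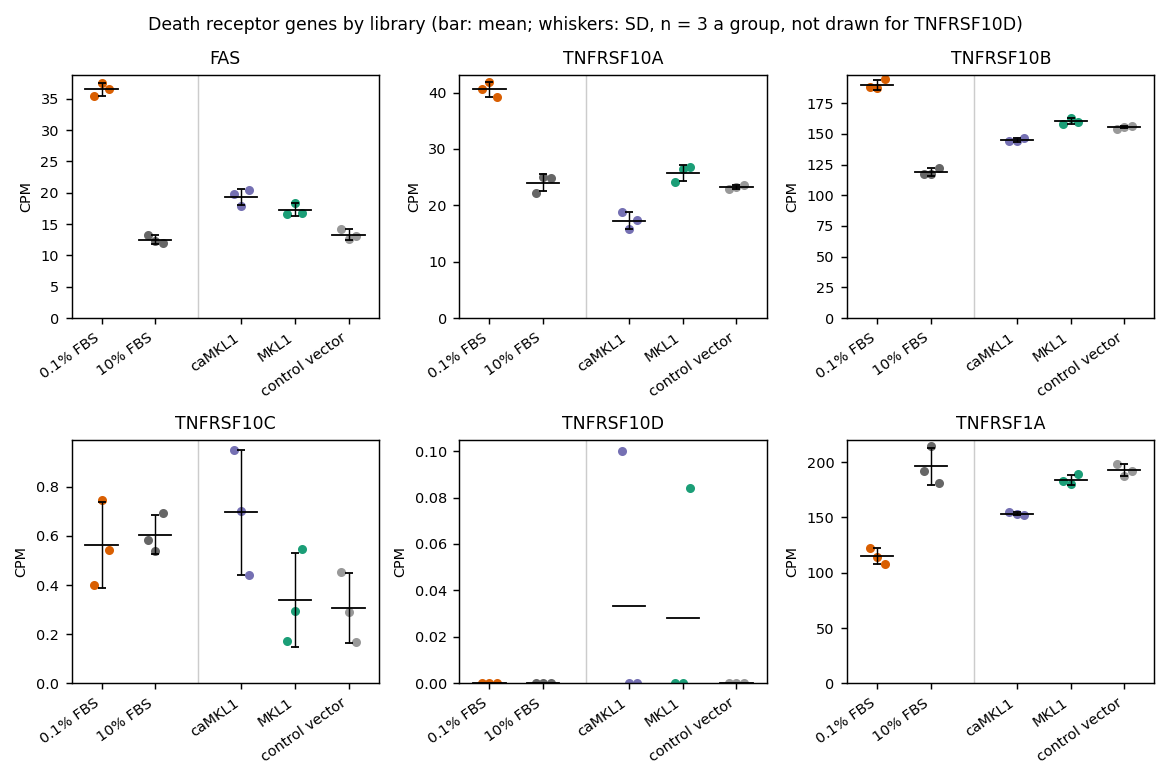
CPM of the 6 receptor genes (y axes, each from 0) in the 5 groups (x axes), with 1 point per library, a bar at the group mean and whiskers of 1 SD (n = 3, not drawn for TNFRSF10D). FAS, TNFRSF10A and TNFRSF10B stood highest in 0.1% FBS, where TNFRSF1A stood lowest, while TNFRSF10C stayed under 1 CPM and TNFRSF10D had counts in only 2 of 15 libraries.

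Starvation raised the 3 death-signalling receptors for FAS ligand and TRAIL and lowered the TNF receptor. FAS stood at 35.5, 37.6 and 36.5 CPM in starved libraries, against 13.3, 12.3 and 12.0 CPM in 10% FBS. The groups lay far apart, with a fold of 3.01 (log2 fold change 1.59 ± 0.0738 SE; edgeR's quasi-likelihood test, Benjamini-Hochberg adjusted p = 2.81e-10). In this comparison 2.53% of the tested genes had a larger log2 change in either direction than FAS. That share was 12.3% for TNFRSF10A, 15.4% for TNFRSF10B and 15.2% for TNFRSF1A. The starved libraries held 40.6, 41.9 and 39.3 CPM of TNFRSF10A, and those in 10% FBS held 22.2, 25 and 24.8 CPM (log2 fold change 0.81 ± 0.0674 SE; edgeR's quasi-likelihood test, Benjamini-Hochberg adjusted p = 1.23e-07). For TNFRSF10B they held 188, 187 and 194.5 CPM in 0.1% FBS, and 117, 117 and 123 CPM in 10% FBS (log2 fold change 0.72 ± 0.0451 SE; edgeR's quasi-likelihood test, Benjamini-Hochberg adjusted p = 6.18e-09). Every starved library was above every 10% FBS library for these 3 genes. TNFRSF1A went the other way, with 122, 114 and 108 CPM in starved libraries and 192, 215 and 182 CPM in 10% FBS (log2 fold change -0.73 ± 0.0602 SE; edgeR's quasi-likelihood test, Benjamini-Hochberg adjusted p = 1.14e-07). All starved libraries were below all libraries in 10% FBS for TNFRSF1A. So 4 of the 4 tested members were called, 3 higher and 1 lower, where 62.6% of all 13307 tested genes were called, 31.2% higher and 31.4% lower. In 67.6% of all tested genes the groups did not overlap. TNFRSF10C and TNFRSF10D had too few counts to be tested. The sum of the FPKM of the 4 TRAIL receptors was 76.5, 79.0 and 78.1 in 0.1% FBS against 45.7, 43.3 and 45.6 in 10% FBS. TNFRSF10B made up 78.7%, 76.7% and 79.2% of that sum in 0.1% FBS and 76.0%, 77.6% and 78.4% in 10% FBS, so the make-up overlapped while the sum did not.

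With caMKL1 FAS was higher, and TNFRSF10A and TNFRSF1A were lower. FAS was at 19.8, 17.95 and 20.4 CPM with caMKL1 against 14.3, 12.6 and 13.1 CPM with the control vector (log2 fold change 0.53 ± 0.0829 SE; edgeR's quasi-likelihood test, Benjamini-Hochberg adjusted p = 6.64e-05). The groups did not overlap, and the fold was 1.44. FAS shares exonic bases with ACTA2, which rose far more here, and with evenly spread ACTA2 counts taken off, the FAS count became 0 with caMKL1 and the fitted direction reversed (log2 fold change -11.01, which is no bound). TNFRSF10A was at 18.8, 15.7 and 17.3 CPM with caMKL1 against 22.8, 23.2 and 23.6 CPM with the control vector (log2 fold change -0.44 ± 0.0762 SE; edgeR's quasi-likelihood test, Benjamini-Hochberg adjusted p = 0.000173). TNFRSF1A was at 155, 153 and 152 CPM with caMKL1 against 198, 187 and 192 CPM with the control vector (log2 fold change -0.34 ± 0.0411 SE; edgeR's quasi-likelihood test, Benjamini-Hochberg adjusted p = 5.06e-06). Both genes were lower in each caMKL1 library than in any control vector library. TNFRSF10B was at 144, 145 and 147 CPM with caMKL1 against 154, 156 and 156.5 CPM with the control vector, a narrow but complete separation (log2 fold change -0.11 ± 0.0397 SE; edgeR's quasi-likelihood test, Benjamini-Hochberg adjusted p = 0.0233). That call held in 6 of 13 alternative settings. It ended under DESeq2's size factors in edgeR (adjusted p = 0.0666), in DESeq2 (adjusted p = 0.0906) and without control vector replicate 2 (edgeR, 0.0639) or 3 (0.0532) or caMKL1 replicate 1 (0.0667), 2 (0.0654) or 3 (0.051), over a range of 0.00735 to 0.0906. In the authors' deposited table its adjusted p is 0.0774. With caMKL1 the share of tested genes with a larger log2 change in either direction than FAS was 25.3%. That share was 32.5% for TNFRSF10A, 78.8% for TNFRSF10B and 43.3% for TNFRSF1A. In all, 1 member was called higher and 3 lower of 4 tested, where 63.6% of all 13558 tested genes were called, 30.5% higher and 33.1% lower, and 67.4% had groups that did not overlap. TNFRSF10B exceeded TNFRSF10A in FPKM by 5.98, 7.70 and 6.08 times with caMKL1 and by 5.10, 5.47 and 4.67 times with the control vector.

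With MKL1, FAS passed the test and TNFRSF10A, TNFRSF10B and TNFRSF1A did not. FAS was at 16.7, 18.4 and 16.8 CPM with MKL1 against 14.3, 12.6 and 13.1 CPM with the control vector (log2 fold change 0.38 ± 0.0821 SE; edgeR's quasi-likelihood test, Benjamini-Hochberg adjusted p = 0.00389). The groups did not overlap. TNFRSF10A was at 24.1, 26.4 and 26.8 CPM with MKL1 against 22.8, 23.2 and 23.6 CPM with the control vector, and did not pass (log2 fold change 0.15, 95% interval 0.02 to 0.28; edgeR's quasi-likelihood test, Benjamini-Hochberg adjusted p = 0.0988). TNFRSF10B was at 158, 163 and 160.1 CPM with MKL1 against 154, 156 and 156.5 CPM with the control vector (log2 fold change 0.05, 95% interval -0.03 to 0.13; edgeR's quasi-likelihood test, Benjamini-Hochberg adjusted p = 0.39). TNFRSF1A was at 183, 180 and 189 CPM with MKL1 against 198, 187 and 192 CPM with the control vector, with overlapping groups (log2 fold change -0.06, 95% interval -0.15 to 0.02; edgeR's quasi-likelihood test, Benjamini-Hochberg adjusted p = 0.294). These intervals exclude changes as large as those seen for the same 3 genes in starvation. The 1 call in 4 tested members stands beside 31.2% of all 13409 tested genes called, 15.8% higher and 15.4% lower. FAS, TNFRSF10A and TNFRSF10B did not overlap between the groups, as was the case for 46.3% of all tested genes. The MKL1 and caMKL1 comparisons share their control vector libraries.

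In a direct comparison with MKL1, fitted over the 9 libraries of that set, caMKL1 gave lower TNFRSF10A, TNFRSF10B and TNFRSF1A. The log2 fold change of TNFRSF10A was -0.57 ± 0.0747 SE (edgeR's quasi-likelihood test, Benjamini-Hochberg adjusted p = 6.07e-06). That of TNFRSF1A was -0.26 ± 0.0393 SE (edgeR's quasi-likelihood test, Benjamini-Hochberg adjusted p = 2.61e-05), and that of TNFRSF10B was -0.14 ± 0.0377 SE (edgeR's quasi-likelihood test, Benjamini-Hochberg adjusted p = 0.00414). All caMKL1 libraries were below all MKL1 libraries for these 3 genes. FAS overlapped between the groups and did not pass (log2 fold change 0.17, 95% interval 0.01 to 0.32; edgeR's quasi-likelihood test, unadjusted p = 0.0501, Benjamini-Hochberg adjusted p = 0.0875). It passed without MKL1 replicate 2 (log2 fold change 0.22, edgeR adjusted p = 0.0471; range over the alternatives 0.0471 to 0.306). TNFRSF10C, which had enough counts for the main test in this comparison alone, was at 0.949, 0.702 and 0.44 CPM with caMKL1 against 0.173, 0.293 and 0.548 CPM with MKL1, and these overlapping groups did not pass (log2 fold change 1.05 ± 0.459 SE; edgeR's quasi-likelihood test, Benjamini-Hochberg adjusted p = 0.0654). It passed without MKL1 replicate 3 (1.6, edgeR adjusted p = 0.0234), without caMKL1 replicate 3 (1.28, 0.0448) and in the 6 libraries of the pair alone (1.06, 0.0499), over a range of 0.0234 to 0.28. Of the 5 tested members 3 were lower and 0 higher, where 52.2% of all 13720 tested genes were called, 25.2% higher and 27% lower, and 61.4% had groups that did not overlap.

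**Figure D2:**
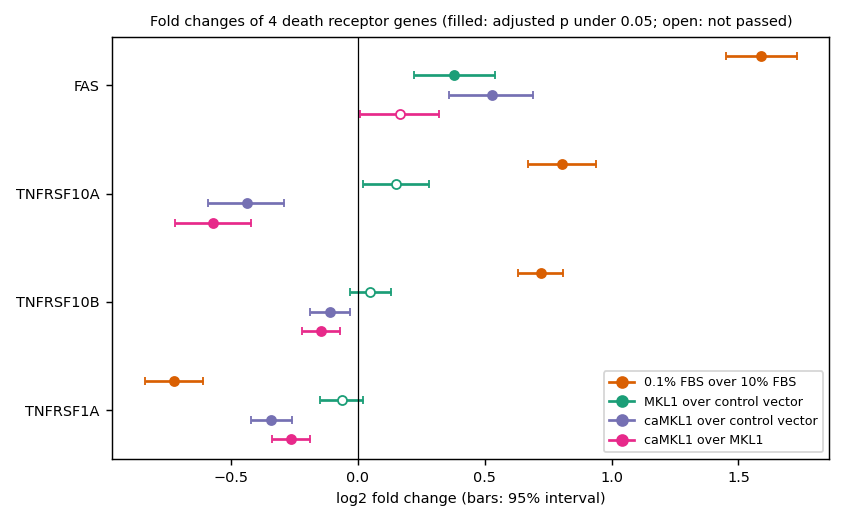
Log2 fold change (x axis, bars showing the 95% interval) of FAS, TNFRSF10A, TNFRSF10B and TNFRSF1A (rows) in the 4 comparisons (colors), with filled points for an adjusted p under 0.05. In starvation FAS, at 1.59, TNFRSF10A and TNFRSF10B lie right of 0 and TNFRSF1A, at -0.73, lies left, whereas with caMKL1 only FAS lies right of 0.

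Ordered by group mean CPM, FAS was highest in 0.1% FBS, followed by caMKL1, MKL1, the control vector and 10% FBS. The caMKL1 and MKL1 libraries overlapped, as did those of the control vector and 10% FBS. TNFRSF10A ran from 0.1% FBS through MKL1, 10% FBS and the control vector, which overlapped as neighbours, down to caMKL1. TNFRSF10B ran from 0.1% FBS through MKL1, the control vector and caMKL1 to 10% FBS, with no overlap between neighbours. Such separation was common: 46.3% of all tested genes did not overlap between MKL1 and the control vector, and 67.4% between caMKL1 and the control vector. No share over all genes was computed for steps between the sets or for a whole order. TNFRSF1A ran from 10% FBS through the control vector and MKL1, which overlapped as neighbours, to caMKL1 and then 0.1% FBS. The control states of the sets lay close for FAS (13.3 ± 0.861 CPM with the control vector, 12.5 ± 0.664 CPM in 10% FBS) but apart for TNFRSF10B (156 ± 1.03 CPM with the control vector, 119 ± 3.22 CPM in 10% FBS). The sets were not tested against each other, since set and handling cannot be told apart.

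The decoy genes contributed little TRAIL receptor RNA in any group. TNFRSF10C (ENSG00000173535) had 28 counts in 0.1% FBS and 30 in 10% FBS over 3 libraries each, and 38 with caMKL1, 23 with MKL1 and 20 with the control vector. It made up at most 1.35% of the summed FPKM of the TRAIL receptors, in a library of 10% FBS. With caMKL1 its libraries held 19, 12 and 7 counts against 10, 6 and 4 with the control vector, and the groups overlapped. It was too low for the test in that comparison, and the 6 alternatives that admitted it gave log2 fold changes of 0.894 to 1.639 with edgeR adjusted p from 0.0106 to 0.105. It passed with no filter (0.0435), in 1 fit of the 9 libraries (0.034), without control vector replicate 1 (0.0106) and without caMKL1 replicate 3 (0.0182), and not without control vector replicate 2 (0.0644) or 3 (0.105). The alternatives that admitted it elsewhere gave edgeR adjusted p of 0.773 to 0.96 in starvation and 0.55 to 0.895 with MKL1. TNFRSF10D (ENSG00000173530) had 0 counts in 13 of 15 libraries and 2 counts each in MKL1 replicate 3 and caMKL1 replicate 1. A count of 0 over the 3 libraries of a group allows up to 0.0605 CPM in 0.1% FBS, 0.0604 CPM in 10% FBS and 0.0453 CPM with the control vector, at 3 counts a group and for counting error only. TNFRSF10C shares 485 exonic bases with AC107959.4 and 249 with AC107959.5, both on its own strand. AC107959.5 held 2 to 13 counts in a library (0.136 to 0.687 CPM), and AC107959.4 is not analysed here. Near copies within the TRAIL receptor cluster (chromosome 8, 23020133 to 23225126) can also share reads, so low counts of either decoy are uncertain.

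FAS (ENSG00000026103, GRCh38 chromosome 10, 88990582 to 89015785, plus strand) overlaps ACTA2 (ENSG00000107796, 88935074 to 88991339, minus strand), the smooth muscle actin gene and a classical target of MKL1 and serum response factor. They share 380 exonic bases in 1 block, 88990960 to 88991339. Only 2 of the 6 annotated ACTA2 transcripts, those that start inside FAS, hold shared bases, and the other 4 start 37809 bases or more from the start of FAS. The sources used here do not say if reads were counted by strand. TNFRSF1A (ENSG00000067182, chromosome 12, 6328757 to 6342114, minus strand) shares no exonic bases with another annotated gene. TNFRSF10B (ENSG00000120889) shares 67 with RHOBTB2. The log2 fold change of RHOBTB2 was -0.23 in starvation, opposite to TNFRSF10B. With caMKL1 that of RHOBTB2 was -0.58, the same direction as the small fall of TNFRSF10B. TNFRSF10A (ENSG00000104689) shares 224 with its antisense gene TNFRSF10A-AS1 and 266 with AC100861.1, also on the opposite strand. Neither of these neighbours is analysed here.

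To show the sequence before the starts of FAS and ACTA2 that lie together and before the distant ACTA2 start, with TNFRSF1A beside them, the 250 bases before 4 RefSeq starts (GRCh38.p14) are given 5′ to 3′ on the strand of the gene, with matches to the CArG box, the element bound by serum response factor, in capitals; 1 G or C was allowed among its middle letters. They are those of FAS (chr10:88990548-88990797, plus strand), TNFRSF1A (chr12:6342077-6342326, minus strand), the ACTA2 start inside FAS (chr10:88991338-88991587, minus strand) and the distant ACTA2 start (chr10:88952774-88953023, minus strand).
FAS: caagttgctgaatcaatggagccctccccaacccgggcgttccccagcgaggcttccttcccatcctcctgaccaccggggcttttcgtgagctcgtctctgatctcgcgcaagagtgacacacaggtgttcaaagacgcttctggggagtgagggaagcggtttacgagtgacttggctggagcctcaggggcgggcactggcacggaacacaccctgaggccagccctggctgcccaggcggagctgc
TNFRSF1A: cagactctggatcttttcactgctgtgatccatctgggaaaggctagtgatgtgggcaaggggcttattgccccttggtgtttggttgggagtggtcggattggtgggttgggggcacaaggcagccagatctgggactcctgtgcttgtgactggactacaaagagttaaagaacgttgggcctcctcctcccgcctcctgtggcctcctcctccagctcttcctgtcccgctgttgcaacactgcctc
ACTA2 start inside FAS: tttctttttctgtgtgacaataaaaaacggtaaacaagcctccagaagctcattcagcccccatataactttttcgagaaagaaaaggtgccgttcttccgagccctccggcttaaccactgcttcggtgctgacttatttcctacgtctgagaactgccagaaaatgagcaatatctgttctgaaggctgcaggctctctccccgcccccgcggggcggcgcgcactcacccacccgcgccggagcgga
ACTA2 distant start: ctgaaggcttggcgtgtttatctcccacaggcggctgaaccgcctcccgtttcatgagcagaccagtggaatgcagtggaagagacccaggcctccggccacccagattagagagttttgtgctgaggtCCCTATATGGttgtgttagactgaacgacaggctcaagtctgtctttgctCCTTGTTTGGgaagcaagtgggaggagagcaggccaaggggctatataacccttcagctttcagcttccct
The distant ACTA2 window held 2 such matches and the other windows held 0, as did the windows before the other RefSeq starts of FAS. A match describes letters and is not a site of binding, and 7.04% of 35116 windows of the same length held at least 1. With no G or C allowed, 1.16% of windows held the box and none of these did. The GC box GGGCGG, read on both strands, was found in the FAS window and in the ACTA2 window inside FAS but not in the TNFRSF1A window or the distant ACTA2 window, and 42.6% of all windows held it. The forkhead core GTAAACA was in the ACTA2 window inside FAS (2.98% of all windows), and TGACTCA (4.2%) and TATAAA (10.7%) were in none of the windows printed. Of the 6 receptors, 2 had an entry in the RefSeq table used.

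**Figure D3:**
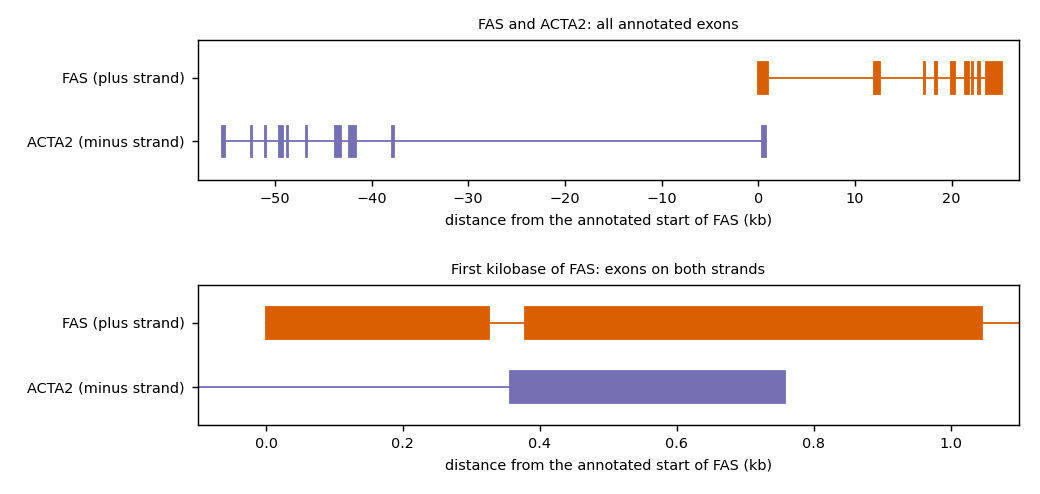
Annotated exons of FAS (plus strand) and ACTA2 (minus strand) as boxes, by distance in kb from the annotated start of FAS (x axes), over both genes and over the beginning of FAS. Only the outermost ACTA2 exon lies over FAS exons, where 380 bases are shared, and the distant ACTA2 starts lie 37809 bases away.

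ACTA2 counts moved very differently from FAS counts with caMKL1. ACTA2 was at 1660, 1630 and 1540 CPM with caMKL1 against 3.90, 3.26 and 3.30 CPM with the control vector, a log2 fold change of 8.84 ± 0.0669 SE (edgeR's quasi-likelihood test, Benjamini-Hochberg adjusted p = 5.69e-19). If the caMKL1 reads of ACTA2 were spread evenly over its 2976 exonic bases, 4247, 3553 and 3139 counts would fall on the shared block, whereas FAS held 396, 307 and 325 counts in all. All FAS counts with caMKL1 came to 1.2% of the ACTA2 counts. The FAS difference, 6.07 CPM, was 0.378% of the ACTA2 difference of 1610 CPM. The length implied by the deposited counts and FPKM of ACTA2 with caMKL1 was 1344, 1345 and 1345 bases, beside 1349 bases for the annotated ACTA2 transcript that starts at the distant site and shares 0 bases with FAS. The implied length was 1075 to 1127 bases with MKL1 or the control vector. In the starvation set it was 1605 to 1677 bases, longer than any annotated ACTA2 transcript. A length implied in this way does not identify a transcript. Which ACTA2 starts were in use in each group was not tested. Whether part of the small FAS rise with caMKL1 came from ACTA2 reads was not tested.

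In starvation the ACTA2 difference was smaller than the FAS difference. For ACTA2 the starved libraries held 10.9, 12.6 and 12.4 CPM, and those in 10% FBS held 4.48, 4.62 and 3.47 CPM, a difference of 7.78 CPM, whereas FAS differed by 24.0 CPM. The log2 fold changes of ACTA2 (1.56) and FAS (1.59) were nearly equal there, so taking a share of ACTA2 counts off FAS, or summing both genes, could not move the fold and gives no check. How many ACTA2 reads were counted for FAS was not tested. The ratio of ACTA2 to FAS counts was 0.308, 0.335 and 0.339 in 0.1% FBS and 0.338, 0.376 and 0.289 in 10% FBS, so it overlapped between the groups. With MKL1 it was 0.722, 0.586 and 0.852, against 0.274, 0.26 and 0.252 with the control vector, without overlap. ACTA2 differed there by 8.88 CPM and FAS by 3.98 CPM. With evenly spread ACTA2 counts taken off, the log2 fold change of FAS with MKL1 was 0.29 (edgeR, adjusted p = 0.0206), and that of both genes' summed counts was 0.82. The even spread is an assumption that took off more counts than FAS had with caMKL1. The value of 0.29 is therefore neither a bound nor a check.

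**Figure D4:**
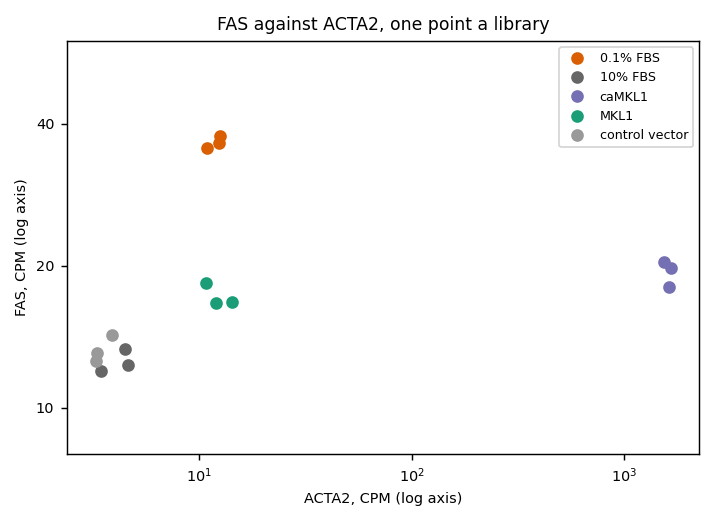
FAS CPM (y axis, log scale) against ACTA2 CPM (x axis, log scale), with 1 point per library colored by group. The caMKL1 libraries sit between 1540 and 1660 CPM of ACTA2 at 17.95 to 20.4 CPM of FAS, while the 0.1% FBS libraries sit at 10.9 to 12.6 CPM of ACTA2 and 35.5 to 37.6 CPM of FAS.

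The deposited FPKM values add a second view of FAS. Their fold changes in the authors' deposited table were 1.59 for 0.1% FBS against 10% FBS, 0.32 for caMKL1 and 0.31 for MKL1, each against the control vector, on the log2 scale. The count-based values above for caMKL1 (0.53) and MKL1 (0.38) are larger. The implied length of FAS was 2406, 2319 and 2599 bases with caMKL1, 2528, 2111 and 2348 bases with MKL1 and 2177, 2223 and 2058 bases with the control vector. The caMKL1 lengths lay above those of the control vector, which moves FPKM and counts apart. FAS has 20 annotated transcripts, and gene-level values do not tell the transmembrane from the soluble form.

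The ligands of these receptors had few counts in every group. FASLG had 4 counts over all 15 libraries, TNFSF10, which encodes TRAIL, 13, TNF 14 and LTA 8, and none could be tested. The genes around the receptors were counted from lists chosen by role, to be read against all tested genes, of which 62.6% were called in starvation, 31.2% with MKL1, 63.6% with caMKL1 and 52.2% for caMKL1 against MKL1. The median log2 fold change over all tested genes was -0.004 in starvation, 0.011 with MKL1, -0.02 with caMKL1 and -0.017 for caMKL1 against MKL1. Of 6 inhibitors of death receptor signalling, 6 rose in starvation (list median log2 fold change 0.99, against -0.004 over all tested genes): BIRC3 (1.63), an inhibitor of apoptosis protein of the TNF receptor complex, TNFAIP3 (1.20), a brake on NF-kappaB, XIAP (1.02), which blocks caspases, and CFLAR (0.95), which blocks caspase-8, were the named ones. With caMKL1 4 rose and 1 fell (median 0.52, against -0.02), led by BIRC3 (3.62) and TNFAIP3 (1.14), with CFLAR (0.52) and BIRC2 (0.52). With MKL1 2 of 6 rose and 0 fell (median 0.10, against 0.011), BIRC3 (1.46) and TNFAIP3 (0.58). Against MKL1, caMKL1 raised 4 and lowered 0 of the 6 (median 0.49, against -0.017), BIRC3 by 2.18 on the log2 scale.

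Adaptors and initiator caspases, like other death receptors, were read against all tested genes. Of those, 62.6% were called in starvation, 63.6% with caMKL1 and 31.2% with MKL1. Of 6 adaptors and initiator caspases, 1 rose in starvation, CASP8 (0.19). TRAF2 (-0.62) and FADD (-0.25), the adaptor of FAS and the TRAIL receptors, were the 2 that fell there (median -0.02, against -0.004 over all tested genes). With caMKL1 2 rose, CASP10 (0.54) and TRADD (0.36), and 2 fell, TRAF2 (-0.36) and FADD (-0.18) (median -0.08). With MKL1 1 rose, CASP10 (0.62), and 2 fell, FADD (-0.28) and RIPK1 (-0.26) (median -0.03). Among 6 tested genes of other death receptors and soluble decoys, 2 rose and 4 fell in starvation (median -0.40). TNFRSF11B (1.01), the soluble TRAIL-binding protein osteoprotegerin, averaged 12.8 ± 0.92 CPM in 0.1% FBS and 6.59 ± 0.599 CPM in 10% FBS. TNFRSF25 (0.84), which encodes DR3, rose as well, and NGFR (-2.44), the neurotrophin receptor, and TNFRSF21 (-0.31), which encodes DR6, fell. With caMKL1 0 rose and 2 fell (median -0.25), TNFRSF1B (-1.11), the second TNF receptor, and NGFR (-0.29). With MKL1 0 rose and 1 fell (median -0.15), TNFRSF21 (-0.56).

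Targets of p53 other than the receptors rose broadly in starvation, 16 of 18 with 0 falling (median 1.03, against -0.004 over all tested genes, of which 31.2% were higher). GDF15 (3.55), a secreted stress factor, TP53INP1 (3.04), CDKN1A (2.27), the cell cycle inhibitor p21, and ZMAT3 (1.43) were the named ones. With MKL1 14 of 18 rose and 1 fell (median 0.35, against 0.011), where 15.8% of all tested genes were higher and 15.4% lower, with GDF15 (1.46), BTG2 (0.65), SESN1 (0.64) and CDKN1A (0.61) named. With caMKL1 10 rose and 5 fell (median 0.26, against -0.02), where 30.5% of all tested genes were higher and 33.1% lower, CDKN1A (0.89) and ZMAT3 (0.52) upward and SESN2 (-0.67) and AEN (-0.53) downward. Set against MKL1, caMKL1 had 6 of these 18 higher and 10 lower (median -0.31, against -0.017). Of all tested genes, 25.2% were higher and 27% lower in that comparison. CDKN1A (0.30) was higher, and BBC3 (-1.05), which encodes the death effector PUMA, XPC (-0.56) and AEN (-0.41) were lower. The ATF4 and DDIT3 list, which includes regulators that act upstream of TNFRSF10B under stress, had 6 tested genes, DDIT3 not being analysed here. In starvation 3 rose and 2 fell, ATF3 (1.38) and PPP1R15A (0.95) upward and ATF4 (-0.65) downward (median 0.20). With caMKL1 0 of 6 rose and 6 fell (median -0.55), among them TRIB3 (-0.70) and DDIT4 (-0.68), and with MKL1 0 rose and 4 fell (median -0.33), among them CHAC1 (-0.57).

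**Figure D5:**
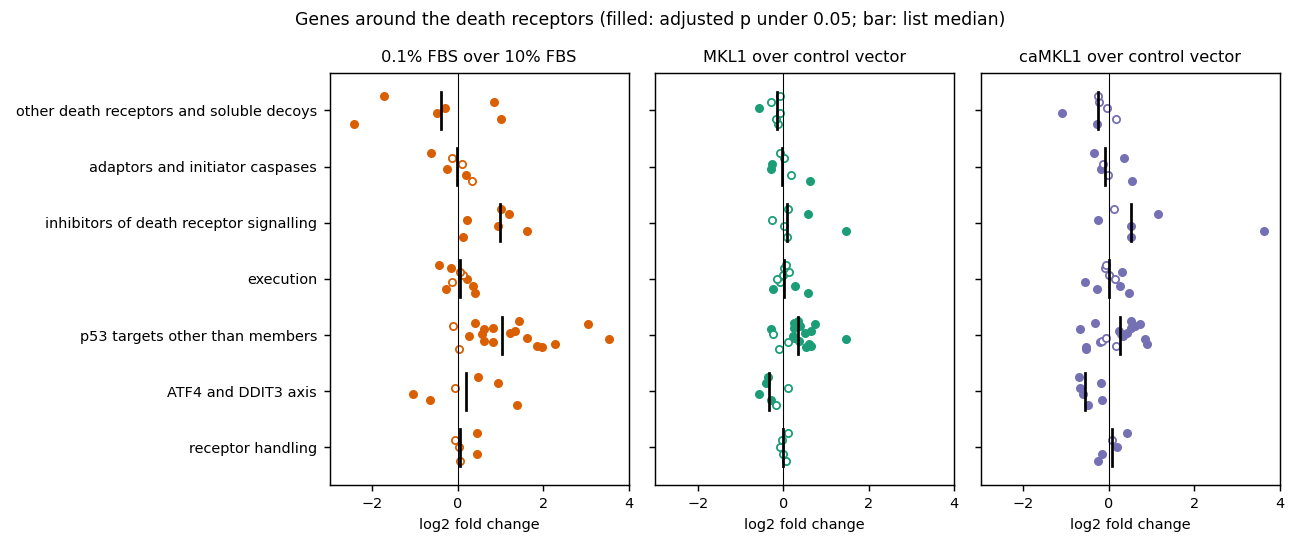
Log2 fold change (x axes) of the tested genes of 7 lists around the death receptors (rows) for 0.1% FBS over 10% FBS, MKL1 over control vector and caMKL1 over control vector (panels), with 1 point per gene, filled for an adjusted p under 0.05, and a bar at each list's median. In starvation the inhibitors (median 0.99) and the p53 targets (median 1.03) lie right of 0, and with caMKL1 the ATF4 and DDIT3 list (median -0.55) lies left.

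Across the 15 libraries, after the mean of each set was taken out, the log2 CPM of FAS ran most like those of CDKN1A (Pearson r 0.992), IGF2R (0.988) and LONRF2 (0.988), out of 12788 genes compared. Genes that ran most like TNFRSF10B included NR4A2 (0.991), an orphan nuclear receptor, and MARCHF6 (0.989). TNFRSF10A ran most like ABCC5 (0.98), MMP1 (0.971) and BTG1 (0.968). TNFRSF1A ran most like GOT2 (0.987), TACC3 (0.986) and MARS1 (0.984), and TNFRSF10C, at few counts, like SLC9A3 (0.831), CCDC159 (0.813) and PPM1N (0.812). Among the members, r was 0.873 for FAS with TNFRSF10B, 0.876 for TNFRSF10A with TNFRSF10B, 0.609 for FAS with TNFRSF10A and -0.945 for FAS with TNFRSF1A. The points share libraries and groups, so these values describe the pattern over the groups.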

How the data were processed

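Per the file headers, the authors deposited counts and FPKM per gene and library, log2 fold changes, p-values and adjusted p-values. Counts are whole numbers, but RSEM is named in the submitters' processing notes, so they may be rounded estimates; Bowtie2 2.2.8, HISAT2 2.2.4, StringTie 1.3.1, DESeq2 and GRCh38 are also named, with no role. The sources used here give neither the annotation release nor the strand setting. The authors' p-values come from a test that the headers do not name. Control vector counts were identical in both overexpression tables for all 20323 genes.

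The deposited counts entered the quasi-likelihood test of edgeR 4.0.16 under R 4.3.3 (two-sided, after filterByExpr and TMM scaling, Benjamini-Hochberg adjustment over all tested genes, threshold 0.05), the starvation, MKL1 and caMKL1 comparisons on their own 6 libraries and caMKL1 against MKL1 on 9. SEs are the absolute log2 fold change over the square root of F, and 95% intervals are normal ones from that SE. These intervals leave out the limited degrees of freedom of the test, so they are somewhat too narrow, and they are not adjusted for the number of genes. CPM use TMM over all 15 libraries, so ratios of mean CPM differ slightly from the fitted folds. Implied lengths are counts over FPKM and library totals. DESeq2 1.42.0 was an alternative. Gene positions come from GENCODE 29, promoters from RefSeq.

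Members and lists were chosen with earlier results of these data known. The text names all members, ACTA2, MRTFA and SRF, up to 4 called genes per list and comparison by smallest p, and the 3 genes with the most similar pattern at a mean of at least 1 CPM; 1 gene that this rule names is not reported here. The fits were tested on simulated data. No 2 replicates of a group agreed within sampling noise (chi-square per gene 1.8 to 8.32).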

Additional observations from a re-analysis of the deposited data

How the results depend on the processing

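FAS, TNFRSF10A and TNFRSF1A kept their direction and their side of the threshold in starvation, caMKL1 and MKL1 under every setting of normalization, filter, test, block and left-out library (the ACTA2 settings aside), and so did TNFRSF10B in starvation and MKL1. The log2 fold change of FAS ranged from 1.562 to 1.633 in starvation, from 0.485 to 0.608 with caMKL1 and from 0.327 to 0.428 with MKL1. When the FAS count was lowered by ACTA2 counts spread evenly over ACTA2 exons, FAS fell to 0 counts with caMKL1 and its fitted log2 fold change became -11.01 against the control vector and -11.34 against MKL1, which is no bound: the setting takes off more counts than FAS had. With the FAS and ACTA2 counts summed, the log2 fold change of the sum, which is mostly ACTA2 with caMKL1, was 5.78 for caMKL1 against MKL1, 6.59 for caMKL1 and 0.82 for MKL1 against the control vector. Leaving out 1 library at a time, between 7463 and 8412 genes were called in starvation, between 2595 (without MKL1 replicate 3) and 4094 with MKL1, between 7829 and 8822 with caMKL1 and between 6194 and 6497 for caMKL1 against MKL1. The members called were then 4 in starvation, 1 with MKL1, 3 to 5 with caMKL1 and 3 to 4 for caMKL1 against MKL1. Scaled by library totals, MKL1 had 2534 genes higher and 1683 lower, against 2114 and 2068 in the main setting, and caMKL1 against MKL1 had 2750 higher and 4942 lower, against 3463 and 3701. The labels do not say whether same-numbered libraries were paired. Their deviations correlated between -0.109 and 0.083, which cannot exclude a pairing that affects some genes. With the number as a replicate block, 8668 genes were called for starvation, 4569 for MKL1, 8710 for caMKL1 and 7396 for caMKL1 against MKL1. Without the block these were 8333, 4182, 8623 and 7164. The block changed no call of FAS, TNFRSF10A, TNFRSF10B or TNFRSF1A. Depth limits TNFRSF10C and TNFRSF10D, where 3 counts in a library correspond to 0.126 to 0.204 CPM.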

Other observations

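Genes of the execution phase and of receptor handling were also counted. Of 9 execution genes, 3 rose and 3 fell in starvation (list median log2 fold change 0.05, against -0.004 over all tested genes, of which 62.6% were called). APAF1 (0.40), the scaffold of the apoptosome, and BAX (0.35), a pore-forming effector, rose, while DIABLO (-0.43), an antagonist of XIAP, and BAK1 (-0.28) fell. With caMKL1 3 rose and 2 fell (median 0.01, where 63.6% of all tested genes were called), with BID (-0.57), the link from caspase-8 to mitochondria, and BAK1 (-0.29) lower and APAF1 (0.48) and BAX (0.26) higher. With MKL1 2 rose and 1 fell (median 0.02, where 31.2% of all tested genes were called), APAF1 (0.58) and BAX (0.28) upward and BAK1 (-0.24) downward. Of 5 tested genes of receptor handling, 2 rose and 0 fell in starvation (median 0.06), ADAM17 (0.44), the protease that sheds TNFRSF1A, and MARCHF8 (0.44), a ligase that lowers surface TNFRSF10A. With caMKL1 2 rose and 2 fell (median 0.07), MARCHF8 (0.43) and ERAP1 (0.19) upward and ADAM10 (-0.26) and ADAM17 (-0.17) downward. With MKL1 none of the 5 passed edgeR's test (median -0.02).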
